A study of Homo sapiens with 35 samples.

Results

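The comparison described here is the response of HDGF-depleted cells to 24 h without glucose. It uses 4 of the 35 RNA libraries of the study, chosen by their labels. The starved group held 2 libraries, numbered 3 and 4, of HEK293T (a long-established line derived from human embryonic kidney) that received an siPOOL (a pool of many small interfering RNAs) against HDGF at 5 nM and were then moved to glucose-free medium for the last 24 h of a 72 h depletion. The glucose-fed group held 2 libraries, also numbered 3 and 4, of HEK293T cells with the same siPOOL, concentration and depletion time that stayed in DMEM with fetal calf serum. All 4 libraries thus carried the HDGF depletion, and the contrast between them is starvation. Responses set beside it came from cells with a control siPOOL (4 starved and 4 glucose-fed libraries) and from cells with an siPOOL against INTS13, a subunit of the Integrator complex (2 starved and 2 glucose-fed libraries). The 4 control libraries of each condition were labelled 3a, 3b, 4a and 4b, so they fell under the same 2 numbers. They were fitted as 4 separate libraries, although the labels do not say whether they came from separate cultures. The study asked how Integrator and transcription factors found with it act, and starvation was added to ask about their role in the response to glucose loss. Of 60665 genes in the table, 19275 passed the count filter and were tested.

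HDGF is a chromatin-binding protein with a PWWP domain that was first described as a growth factor. Cells without glucose lose the sugar phosphates that keep the transcription factor MondoA active, and its target TXNIP, which holds back glucose uptake, is a classic readout of sugar supply. Loss of glucose also slows protein glycosylation in the endoplasmic reticulum (ER) and can engage the integrated stress response, in which ATF4 drives genes of amino acid synthesis, amino acid import and tRNA charging.

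The siPOOL target was checked first. HDGF (chr1:156742109-156766925, minus strand) had 46.8 and 52.1 CPM (CPM, counts relative to library size after TMM scaling) in starved HDGF-depleted libraries, against 42.7 and 49.6 CPM in glucose-fed HDGF-depleted libraries. Starved control libraries held 483 ± 12.7 CPM (SD, n = 4) and glucose-fed control libraries 552 ± 22.9 CPM (SD, n = 4), so HDGF mRNA was far below the control level with and without glucose. Starvation did not move it detectably in the depleted cells (log2 fold change 0.10 ± 0.09, SE; adjusted p = 0.67). Starved libraries 3 and 4 held 25931798 and 16766673 counts, against 23996778 and 23518487 counts in glucose-fed libraries 3 and 4, so starved library 4 was the shallowest of the 35, which ranged up to 50790278 counts. Ribosomal protein genes took 7.42 and 6.87% of counts in starved libraries, against 6 and 6.21% in glucose-fed libraries. Of 8 genes that mark HEK293T cells, 7 reached 1 CPM and PAX8 was at 0, with a summed level of 624 to 658 CPM in starved libraries and 624 to 641 CPM in glucose-fed libraries. Marker lists of blood cells, fibroblasts, endothelium, hepatocytes and differentiated kidney tubule summed to at most 4.09 CPM in a starved library and 5.96 CPM in a glucose-fed library. In bulk RNA, fewer cells of a kind and less RNA per cell cannot be told apart.

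Starvation of HDGF-depleted cells changed 683 of 19275 genes (3.54%) at an adjusted p under 0.05 in edgeR's quasi-likelihood test, with 403 higher (2.09%) and 280 lower (1.45%). A change of at least 2-fold was reached by 77 of the higher genes and 45 of the lower genes. Among the called genes, 612 were protein-coding (348 higher, 264 lower) and 71 were of other types (55 higher, 16 lower). The strongest rises among well-expressed protein-coding genes were in CHAC1, JDP2, HRK, CTH and RYR2, and the strongest falls in TXNIP, HMOX1, H2AC8, H1-3 and SELENOW. The median log2 change over all tested genes was 0.002. The number of calls depended on the libraries in the fit. A set of 18 libraries was also fitted alone. It held the HDGF, INTS13 and control libraries described above and the ZNF655 siPOOL libraries 3 and 4. The grouping was made here and is not in the labels. ZMYND8 siPOOL libraries and their own controls, also numbered 3 and 4, were left out of it. In this fit 3170 of 18665 genes were called, 1625 higher and 1545 lower. All 683 were among them. Counts of called genes in the lists below are to be read beside the totals of the same fit, and 1 or 2 calls in a short list say little about it. When 1 of the 4 libraries was left out, 139 genes were called without glucose-fed library 3, 141 without glucose-fed library 4, 208 without starved library 3 and 109 without starved library 4.

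**Figure D1:**
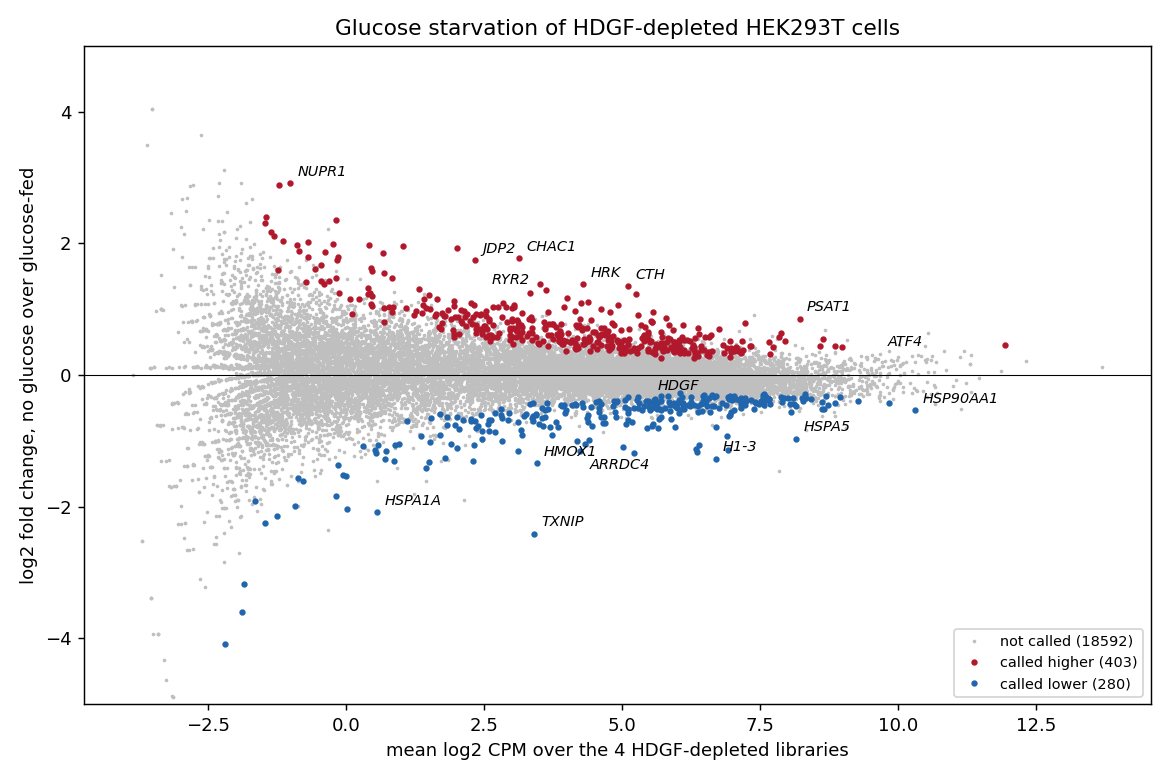
Log2 fold change (starved over glucose-fed HDGF-depleted libraries) against mean log2 CPM over the 4 libraries, with 1 point per tested gene. Red points are the 403 genes called higher, blue points the 280 called lower and grey points the genes not called, and 2 uncalled genes lie outside the plotted range. TXNIP lies far below other genes of its level, and the fold change that was needed for a call shrinks as level rises.

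Among called protein-coding genes averaging a log2 CPM of 2 or more, TXNIP had the largest fall. TXNIP (chr1:145992435-145996579, minus strand), an arrestin-like brake on glucose uptake, had 4.72 and 4.39 CPM in starved libraries, against 24.3 and 24.2 CPM in glucose-fed libraries. Both starved libraries lay far below both glucose-fed ones, and the log2 fold change was -2.41 ± 0.27 (SE; adjusted p = 1.52e-05). ARRDC4 (chr15:97960703-97973833, plus strand), its paralog and a second MondoA target, had 12.3 and 12.9 CPM in starved libraries, against 27.04 and 29.4 CPM in glucose-fed libraries. ARRDC4 fell by 1.16 on the log2 scale (adjusted p = 5.04e-05). Both calls held with any 1 library left out. Of the 7 genes of the MondoA axis, 2 fell and none rose, with a median of -0.20. The sensors themselves passed no test: MLXIP, which encodes MondoA, changed by -0.20 (adjusted p = 0.64), its partner MLX by -0.24 (0.25) and the related MLXIPL by -0.06 (0.93).

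The promoter of ARRDC4 is shown because it holds the E-box core, the sequence to which MondoA and MLX bind in pairs. The window runs 250 bases before to 50 bases after the RefSeq start (GRCh38.p14, chr15:97960453-97960752, plus strand), printed 5′ to 3′ along the gene with the E-box (CACGTG) in capitals.

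ARRDC4: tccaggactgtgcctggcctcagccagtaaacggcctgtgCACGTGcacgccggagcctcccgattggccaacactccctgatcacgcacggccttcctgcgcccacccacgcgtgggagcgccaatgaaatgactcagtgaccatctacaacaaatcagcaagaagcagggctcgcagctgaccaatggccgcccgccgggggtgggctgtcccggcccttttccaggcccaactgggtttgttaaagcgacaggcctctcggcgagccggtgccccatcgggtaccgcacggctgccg

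The single E-box begins at base 41 of the window. The search covered CACGTG on both strands and also the exact pair, CACGTG followed by any 5 bases and a second CACGTG, which contains it. Of 11770 tested genes with a RefSeq promoter window, 9.97% held an E-box, against 11.1% of 297 genes called higher and 11% of 219 genes called lower. The exact pair was in 0.017% of windows (2 genes) and in none of the called ones. The search allowed no mismatch, so it cannot tell whether a window holds an inexact pair. The first-listed TXNIP window held neither exact string, but it held CACGAG, 5 bases and a second CACGAG.

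Of 20 glycolytic genes, ALDOC, an aldolase, rose and PGAM1, a phosphoglycerate mutase, fell. ALDOC had 6.301 and 6.02 CPM in starved libraries, against 3.17 and 3.34 CPM in glucose-fed libraries (log2 fold change 0.92, adjusted p = 0.00794). PGAM1 had 124 and 122 CPM in starved libraries, against 163 and 169.6 CPM in glucose-fed libraries (-0.44, adjusted p = 0.0132). The glycolysis median was -0.11. The other 18 glycolytic genes did not pass; with the 18 libraries of the set alone 3 were called higher and 7 lower, and with 1 library left out none was. In the pentose phosphate pathway 1 of 7 genes rose, PGLS (6-phosphogluconolactonase), by 0.60 (adjusted p = 0.0261). Among 13 transporters of glucose, lactate and pyruvate, SLC2A11 rose by 0.71 (adjusted p = 0.0208). Beside the 2.09% of all tested genes called higher and 1.45% called lower, such single calls describe the gene and not its list. With the set alone the totals were 1625 higher and 1545 lower of 18665 genes. Among 20 genes of hexosamine and sugar nucleotide synthesis, GMDS, which makes the precursor of GDP-fucose, rose by 0.66 (adjusted p = 0.00102), while UGDH and GMPPB fell by 0.39 and 0.45 (adjusted p = 0.0223 and 0.00838). With 1 library left out the calls were 0 for the pentose phosphate list, 0 to 1 for the transporters and, for hexosamine synthesis, 1 higher and 0 to 1 lower.

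**Figure D2:**
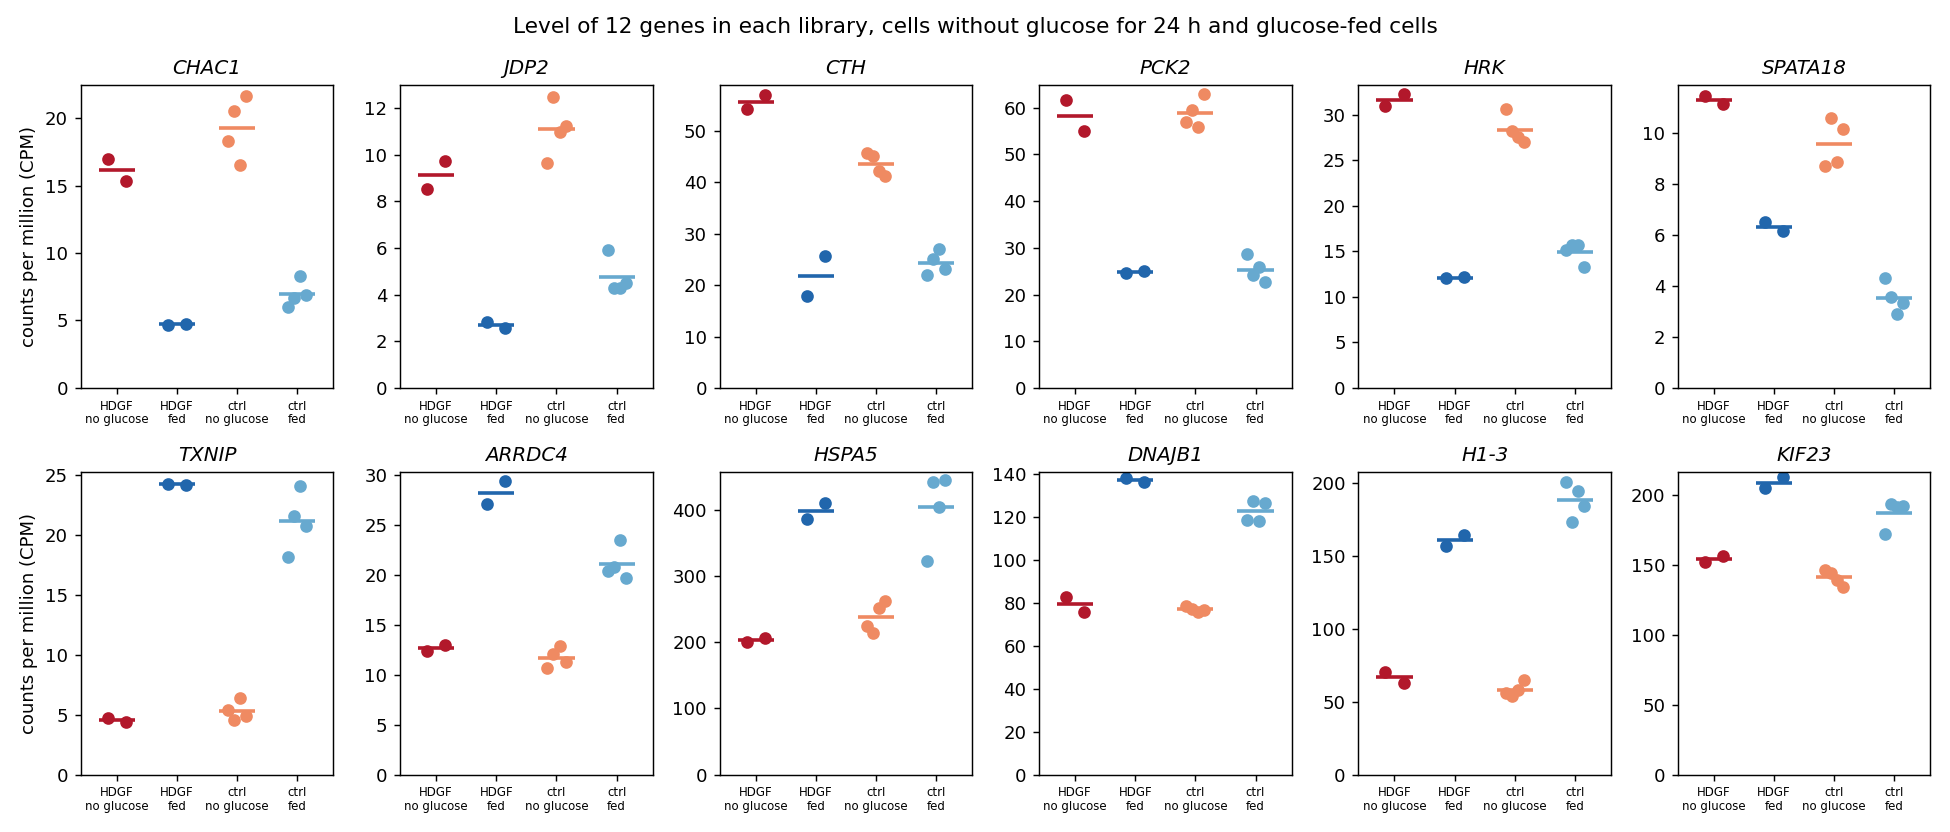
Level of 12 genes in CPM (linear axes from 0) in each library of HDGF-depleted and control cells without and with glucose; points are libraries and bars are group means (n = 2 per HDGF-depleted group, n = 4 per control group). In every panel the starved and glucose-fed HDGF-depleted libraries do not overlap, and control libraries move in the same direction. Non-overlap was a condition for naming the genes of largest change. It also held for 5429 higher and 5358 lower genes of the 19275 tested.

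Some members of the lists for the integrated stress response and for amino acid supply rose. Of 18 regulators and targets of the integrated stress response, 7 rose and none fell, with a median log2 change of 0.51. Over all tested genes 2.09% were called higher and 1.45% lower. CHAC1, an enzyme that degrades glutathione, had 16.95 and 15.4 CPM in starved libraries, against 4.69 and 4.71 CPM in glucose-fed libraries. Its starved libraries stood well above the fed ones, yet its adjusted p of 0.0499 lay just under the threshold (log2 fold change 1.78 ± 0.51, SE). JDP2, a bZIP repressor of the AP-1 family, had 8.55 and 9.73 CPM in starved libraries, against 2.85 and 2.56 CPM in glucose-fed libraries (1.75 ± 0.25, adjusted p = 3.40e-04). NUPR1, a small stress-induced nuclear protein, was scarce, with 1.18 and 1.01 CPM in starved libraries and 0.161 and 0.124 CPM in glucose-fed libraries, and rose by 2.92 (adjusted p = 0.00462). The other called members were VLDLR (0.84), the secreted glycoprotein STC2 (0.80), EIF4EBP1 (0.70), which blocks cap-dependent translation, and VEGFA (0.53).

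The transcription factors at the head of the response were not called. ATF4 had 951 and 882 CPM in starved libraries, against 706 and 757 CPM in glucose-fed libraries. All starved values were higher, as they were for 5429 of 19275 tested genes. Its log2 change of 0.33 ± 0.15 (SE) had an adjusted p of 0.27. DDIT3, the pro-apoptotic factor CHOP, had 13.3 and 13.9 CPM in starved libraries, against 8.54 and 11.3 CPM in glucose-fed libraries (0.46 ± 0.29, adjusted p = 0.48), and it overlaps MARS1 and MBD6 on the opposite strand. With the 18 libraries of the set fitted alone ATF4 passed (adjusted p = 5.66e-04). ATF3 changed by -0.42, TRIB3 by -0.24 and PPP1R15A by -0.32, each in the negative direction and none passing (adjusted p = 0.59, 0.50 and 0.60).

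In serine, one-carbon and amino acid synthesis 8 of 16 genes rose (2.09% of all tested genes did) and none fell, with a median of 0.45. CTH, which makes cysteine from cystathionine, had 54.2 and 57.02 CPM in starved libraries, against 17.9 and 25.6 CPM in glucose-fed libraries (log2 fold change 1.35, adjusted p = 0.00207). PCK2, the mitochondrial phosphoenolpyruvate carboxykinase, had 61.6 and 55.1 CPM in starved libraries, against 24.6 and 25.1 CPM in glucose-fed libraries (1.23, adjusted p = 1.76e-04). PCK2 kept its call with any 1 library left out. ASNS, asparagine synthetase, had 11.7 and 11.6 CPM in starved libraries, against 5.74 and 5.61 CPM in glucose-fed libraries (1.04, adjusted p = 0.0256). Its pseudogene ASNSP1 rose by 1.94, and reads of the pair may be shared. All 3 steps of serine synthesis rose: PSAT1 by 0.86, PSPH by 0.48 and PHGDH by 0.42 (adjusted p = 0.00296, 0.0469 and 0.0257). The remaining called members were the mitochondrial enzymes ALDH1L2 (0.76) and GPT2 (0.61).

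Importers of amino acids rose in 5 of 14 cases, with a median of 0.34. Among all tested genes 2.09% were called higher, and 1625 of 18665 with the 18 libraries of the set alone. The glycine transporter SLC6A9 had 31.8 and 29.5 CPM in starved libraries, against 15.6 and 12.9 CPM in glucose-fed libraries (log2 fold change 1.11, adjusted p = 0.0141). SLC1A4, a carrier of alanine, serine and cysteine, rose by 0.96, and the neutral amino acid carriers SLC38A2, SLC38A1 and SLC43A1 rose by 0.55, 0.44 and 0.53. SLC7A11, the cystine importer, changed by 0.91 without passing (adjusted p = 0.0839), and the leucine carrier pair SLC7A5 and SLC3A2 changed by 0.21 and 0.03. Of 20 cytosolic tRNA synthetases, LARS1 rose by 0.45 (adjusted p = 0.00154) and HARS1 fell by 0.33 (0.033). With 1 library left out, 1 to 2 stress response members, 2 to 5 synthesis genes and 0 to 1 transporters were called higher, and with the 18 libraries of the set alone 12, 11 and 7 were.

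Promoters of CHAC1, ASNS and HRK, a rising gene of the BCL2 family, are shown because they hold a string read by ATF4 and its C/EBP partners, the C/EBP-ATF response element, searched here as TGATGNAAN on both strands. Each window spans 250 bases before to 50 after the RefSeq start on GRCh38.p14, 5′ to 3′ along the gene, with the matching string in capitals (in CHAC1 it lies on the opposite strand). The windows are chr15:40953221-40953520, plus strand, for CHAC1, chr7:97872359-97872658, minus strand, for ASNS, and chr12:116881392-116881691, minus strand, for HRK.

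CHAC1: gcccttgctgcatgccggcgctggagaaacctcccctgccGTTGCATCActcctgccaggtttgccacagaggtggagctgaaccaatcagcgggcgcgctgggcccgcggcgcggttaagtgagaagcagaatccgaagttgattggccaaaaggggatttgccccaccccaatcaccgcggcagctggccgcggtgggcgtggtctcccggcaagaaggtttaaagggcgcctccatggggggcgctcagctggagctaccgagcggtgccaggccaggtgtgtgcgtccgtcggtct

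ASNS: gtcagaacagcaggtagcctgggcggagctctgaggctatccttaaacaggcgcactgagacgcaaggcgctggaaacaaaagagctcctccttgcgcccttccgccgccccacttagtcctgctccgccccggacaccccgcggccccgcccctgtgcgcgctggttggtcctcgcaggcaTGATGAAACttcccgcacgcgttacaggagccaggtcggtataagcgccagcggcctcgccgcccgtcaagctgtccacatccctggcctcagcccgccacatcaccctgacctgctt

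HRK: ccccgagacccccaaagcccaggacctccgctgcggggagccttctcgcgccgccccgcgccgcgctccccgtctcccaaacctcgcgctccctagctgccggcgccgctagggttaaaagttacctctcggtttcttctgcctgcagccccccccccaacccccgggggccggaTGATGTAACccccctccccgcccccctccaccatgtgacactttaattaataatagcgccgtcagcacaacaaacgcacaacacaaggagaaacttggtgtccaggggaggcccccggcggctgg

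The string occurred in 11 of 297 windows of genes called higher (3.70%), in 4 of 219 windows of genes called lower (1.83%) and in 1.70% of all 11770 windows. For ASNS and HRK it read TGATGAAAC and TGATGTAAC. Of other rising genes looked at singly, PSAT1, CTH, PCK2, SLC6A9, VLDLR, STARD4 and BBC3 had no match in their first window. JDP2 and SLC1A4 matched only in a window of a later start. A match describes the letters of the window and no binding was measured.

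Some targets of p53 rose as well. Of 24 listed targets 6 rose and none fell, with a median of 0.36. Over all tested genes 2.09% were called higher, and 1625 of 18665 with the set alone. SPATA18, linked to the repair of mitochondria, had 11.5 and 11.1 CPM in starved libraries, against 6.498 and 6.15 CPM in glucose-fed libraries, and rose by 0.84 ± 0.15 (SE; adjusted p = 0.00177). DDB2, a DNA damage recognition protein, had 25.98 and 23.6 CPM in starved libraries, against 13.2 and 12.1 CPM in glucose-fed libraries (0.97, adjusted p = 0.00706). The other called targets were the death receptor EDA2R (1.32, at about 2 CPM or less in all 4 libraries), PHLDA3 (0.85), BBC3 (0.76), which encodes the BH3-only protein PUMA, and MDM2 (0.44), which marks p53 for degradation. MIR34AHG, the host transcript of the p53-responsive miRNA miR-34a, had 18.8 and 17.9 CPM in starved libraries, against 7.02 and 7.1 CPM in glucose-fed libraries (1.38, adjusted p = 0.00161). CDKN1A, the cell cycle inhibitor p21, changed by 0.45 (adjusted p = 0.14) and FAS by 0.03 (0.95), and neither passed. HEK293T cells carry SV40 large T antigen, which binds p53. The count of targets called higher was 1 to 3 with 1 library left out and 15 with the 18 libraries of the set alone.

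Of 15 BCL2 family genes, HRK and BBC3 rose and MCL1 fell, beside 2.09% of all tested genes called higher and 1.45% lower. HRK (chr12:116856144-116881441, minus strand), a BH3-only promoter of apoptosis, had 30.99 and 32.3 CPM in starved libraries, against 12.1 and 12.1 CPM in glucose-fed libraries. It gave the lowest adjusted p of the named genes (2.99e-06, log2 fold change 1.38 ± 0.14, SE) and its call held with any 1 library left out. BBC3 had 24.5 and 22.04 CPM in starved libraries, against 11.8 and 15.8 CPM in glucose-fed libraries. MCL1, which protects from apoptosis, had 269 and 271 CPM in starved libraries, against 337 and 352 CPM in glucose-fed libraries (-0.35, adjusted p = 0.0322).

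Some chaperone genes fell in starved cells. HSPA5 (chr9:125234853-125241343, minus strand), the ER chaperone BiP, had 201 and 207 CPM in starved libraries, against 386 and 409.6 CPM in glucose-fed libraries. The groups lay far apart, and HSPA5 fell by 0.97 on the log2 scale (adjusted p = 0.00248), with the call held when any 1 library was left out. SDF2L1, an ER chaperone partner, fell by 0.75 (adjusted p = 0.00353). They were the only 2 of 30 ER chaperone and unfolded protein response genes to be called, and the list median was -0.21. Over all tested genes 1.45% were called lower, and 1545 of 18665 in the fit of the 18 libraries alone. With the 18 libraries of the set alone 10 were called lower, and with 1 library left out 1 to 2 were. HSP90B1 changed by -0.25, CALR by -0.26, PDIA4 by -0.24, XBP1 by 0.09 and HERPUD1 by 0.02, and none passed.

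The HSPA5 promoter is shown because it holds the complete ER stress response element searched here, CCAAT, any 9 bases and CCACG on either strand, which ATF6 recognises together with NF-Y. The window (GRCh38.p14, chr9:125241294-125241593, minus strand) again spans 250 bases before to 50 after the RefSeq start, 5′ to 3′ along the gene, with the element in capitals.

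HSPA5: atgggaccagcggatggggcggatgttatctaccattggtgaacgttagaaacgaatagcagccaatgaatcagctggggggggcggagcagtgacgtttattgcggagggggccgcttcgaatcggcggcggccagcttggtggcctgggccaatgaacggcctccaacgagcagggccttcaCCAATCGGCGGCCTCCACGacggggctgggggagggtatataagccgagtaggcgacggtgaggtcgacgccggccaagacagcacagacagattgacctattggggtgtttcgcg

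The element starts at base 185. It was present in 0.119% of the 11770 windows (14 genes), in 1 of 219 windows of genes called lower (0.457%), that of HSPA5, and in 0 of 297 windows of genes called higher.

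Cytosolic chaperones fell in 3 of 15 cases and rose in none, with a list median of -0.45. Among all tested genes 1.45% were called lower, and 1545 of 18665 with the set alone. HSP90AA1, the inducible HSP90, had 1052 and 1059 CPM in starved libraries, against 1605 and 1453 CPM in glucose-fed libraries (log2 fold change -0.53, adjusted p = 0.0266). DNAJB1, an HSP40 co-chaperone, had 82.7 and 75.7 CPM in starved libraries, against 138 and 136 CPM in glucose-fed libraries (-0.79, adjusted p = 0.00108). HSPA1A, the inducible HSP70, had 0.626 and 0.731 CPM in starved libraries, against 3.01 and 2.68 CPM in glucose-fed libraries (-2.08, adjusted p = 0.0199). HSPA1B is nearly identical to HSPA1A and may share its reads. All 15 members had negative log2 changes, and 13 were called lower with the 18 libraries of the set alone, against 1 with 1 library left out.

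Some genes of cell division and of S phase histones fell. Of 30 mitotic genes 4 fell and none rose, with a median of -0.21. Over all tested genes 2.09% were called higher and 1.45% lower. With the set alone the totals were 1625 higher and 1545 lower of 18665 genes. KIF23, a kinesin of cytokinesis, had 152 and 156 CPM in starved libraries, against 205 and 213 CPM in glucose-fed libraries (log2 fold change -0.44, adjusted p = 0.00154). CDC20, an activator of the anaphase-promoting complex, AURKA, a spindle kinase, and BUB1, a checkpoint kinase, fell by 0.52, 0.42 and 0.29 (adjusted p = 0.00435, 0.0135 and 0.0461). With 1 library left out 1 to 2 mitotic genes were called lower, and with the 18 libraries of the set alone 15 were. Among 35 DNA replication genes edgeR called none in the fit of all libraries, and 1 higher and 6 lower with the set alone. Among 16 G1 cyclins and CDK inhibitors, CCND1 (cyclin D1) had 15.6 and 14.4 CPM in starved libraries, against 30.1 and 29.6 CPM in glucose-fed libraries (-0.99, adjusted p = 0.0188). The pocket proteins RBL1 and RBL2, which hold back E2F genes, rose by 0.36 and 0.43 (adjusted p = 0.0451 and 0.00449). With 1 library left out 0 to 1 genes of this list were called higher and none lower.

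Of 44 replication-dependent histone genes, grouped by symbol after their values were seen, 7 fell and none rose, with a median of -0.30. Among all tested genes 1.45% were called lower, and 1545 of 18665 with the set alone. H1-3, a linker histone, had 70.8 and 62.6 CPM in starved libraries, against 157 and 165 CPM in glucose-fed libraries (log2 fold change -1.27 ± 0.17, SE; adjusted p = 1.56e-04). H3C1 had 89.5 and 74.9 CPM in starved libraries, against 172 and 189 CPM in glucose-fed libraries (-1.14, adjusted p = 0.00329). H3C7, H2AC4 and H2AC8 fell by 1.10, 1.16 and 1.31, and H2BC8 and H3C13 by 1.41 and 0.92. Histone genes share sequence, so reads may be split among them. The number called lower was 1 to 5 with 1 library left out and 22 with the 18 libraries of the set alone.

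HOX genes, which set positional identity in the embryo, were also grouped after their values were seen. Of 38 tested, 8 fell (1.45% of all tested genes did, and 1545 of 18665 with the set alone) and none rose, with a median of -0.25. They came from 3 of the 4 clusters and included HOXA9 (-0.58), HOXA10 (-0.46) and HOXA11 (-0.71), HOXB2 (-0.71) and HOXB6 (-0.49), and HOXD11 (-0.45) and HOXD13 (-0.52). The number called lower was 2 to 6 with 1 library left out and 13 with the 18 libraries of the set alone. The antisense transcripts HOXA-AS2 and HOXA11-AS fell by 0.82 and 0.77, and reads of an antisense gene and its partner cannot be told apart because the strand setting of the counting is not given. Other genes with a large fall were OLIG2, a transcription factor of the oligodendrocyte lineage (3.501 and 3.32 CPM in starved libraries, against 6.42 and 7.84 CPM in glucose-fed libraries), PRTG, an immunoglobulin superfamily protein of the early embryo (-1.06), the Wnt receptor FZD8 (-1.05), and SKIDA1 (-1.16), which overlaps MLLT10 on the opposite strand. The calls of PRTG, FZD8 and SKIDA1 did not hold in every fit with 1 library left out. ZNF503-AS2, antisense to ZNF503, fell by 0.77. The non-coding AC091182.1 had 6.52 and 6.58 CPM in starved libraries, against 12.2 and 12.5 CPM in glucose-fed libraries.

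**Figure D3:**
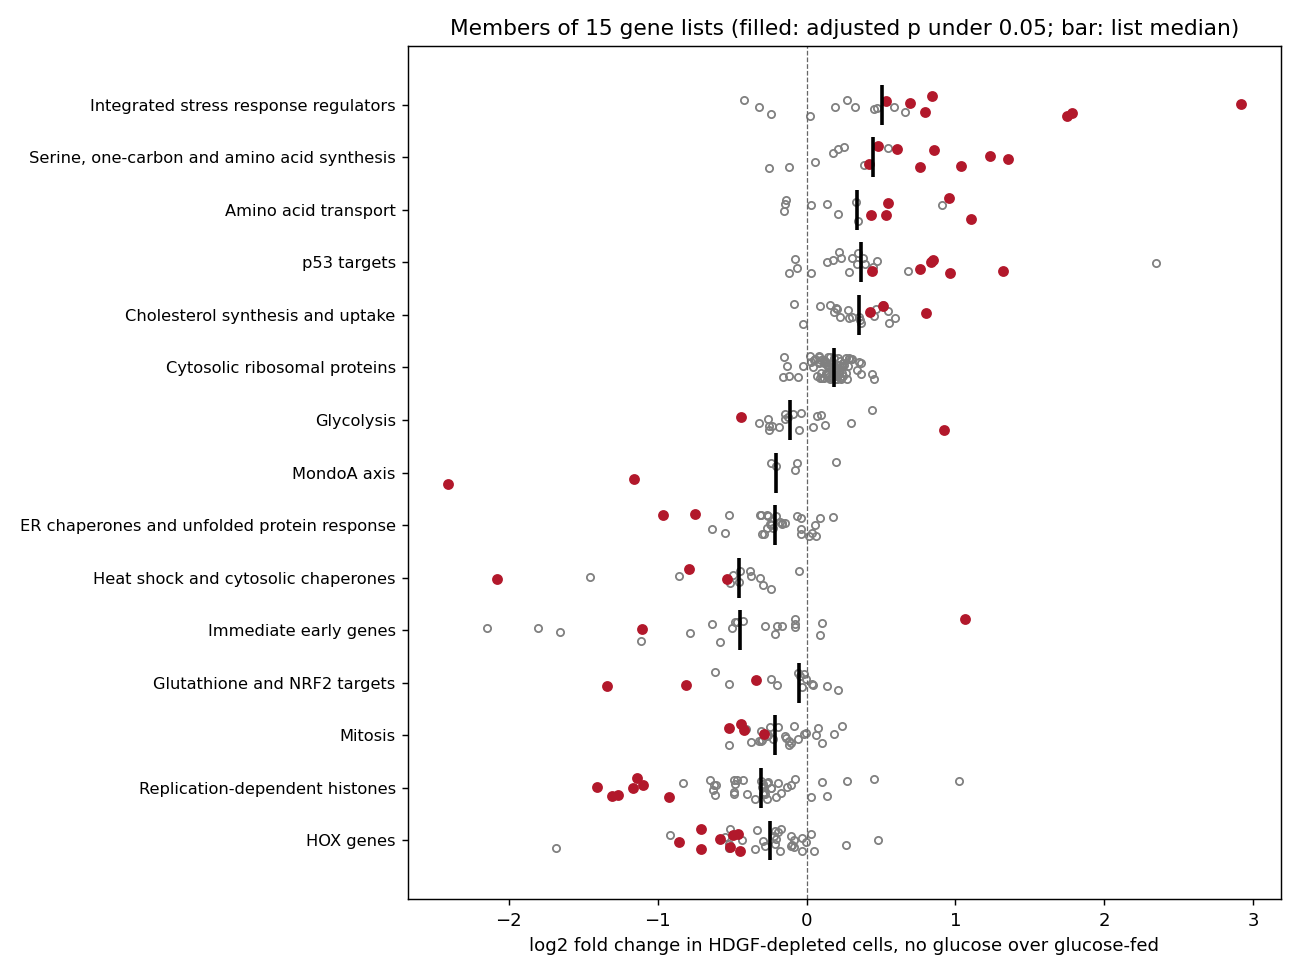
Log2 fold change of starved over glucose-fed HDGF-depleted libraries for the tested members of 15 gene lists. Each point is a gene, filled red where it was called and open where it was not, and the black bar is the list median; stress response, amino acid, p53 and cholesterol lists lie to the right of 0 and chaperone, mitosis, histone and HOX lists to the left.

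In cholesterol synthesis and uptake 3 of 23 genes rose and none fell, with a median of 0.35. Over all tested genes 2.09% were called higher, and 1625 of 18665 with the set alone. STARD4, a sterol carrier, had 54.6 and 68.7 CPM in starved libraries, against 35.1 and 35.5 CPM in glucose-fed libraries (log2 fold change 0.80, adjusted p = 0.00353). The enzymes SQLE and LSS, which make and close the sterol precursor, rose by 0.52 and 0.43 (adjusted p = 0.037 and 0.0272). With the 18 libraries of the set alone 17 of the 23 were called higher, and with 1 library left out 0 to 1 were. In fatty acid synthesis and desaturation 3 of 15 genes fell (1.45% of all tested genes did) and none rose. They were SREBF1, the lipogenic transcription factor (14.3 and 11.5 CPM in starved libraries, against 27 and 24.7 CPM in glucose-fed libraries), and the elongases ELOVL6 (-0.64) and ELOVL1 (-0.47). The list median was -0.05, and 0 to 2 members were called lower with 1 library left out.

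Antioxidant and immediate early genes changed at a few members. Of 16 glutathione and NRF2 target genes 3 fell and none rose, beside 1.45% of all tested genes called lower and 2.09% higher. HMOX1, heme oxygenase, had 7.81 and 5.904 CPM in starved libraries, against 16.5 and 18.5 CPM in glucose-fed libraries (log2 fold change -1.34, adjusted p = 0.0206). GCLM, the modifier subunit of glutathione synthesis, had 34.4 and 41.9 CPM in starved libraries, against 66.2 and 67.4 CPM in glucose-fed libraries (-0.81, adjusted p = 0.00329), and TXNRD1, thioredoxin reductase, fell by 0.34. SELENOW, a small selenoprotein outside these lists, had 26.7 and 22.6 CPM in starved libraries, against 55.5 and 56.8 CPM in glucose-fed libraries (-1.19, adjusted p = 0.00154). Of 22 immediate early genes, JUND, an AP-1 subunit, rose by 1.06 (adjusted p = 0.00542) and IER3 fell by 1.11 (0.0152). FOS had 1.36 and 1.07 CPM in starved libraries, against 3.41 and 5.24 CPM in glucose-fed libraries, and its change of -1.80 did not pass (adjusted p = 0.12). Of 15 hypoxia targets, VEGFA rose while EGLN3 and ADM fell by 0.83 and 0.69 (adjusted p = 0.00217 and 0.0278). With 1 library left out 0 to 1 NRF2 targets were called lower, 0 to 1 immediate early genes higher and 0 to 1 lower, and, of hypoxia targets, 0 higher and 1 lower.

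The remaining genes named for the size of their rise or fall belonged to none of these lists. RYR2, a calcium release channel, had 18.7 and 19.7 CPM in starved libraries, against 8.22 and 7.39 CPM in glucose-fed libraries (log2 fold change 1.30 ± 0.15, SE; adjusted p = 2.79e-05). RAB3C, a GTPase of secretory vesicles, SNAP91, an adaptor of synaptic vesicle recycling, and STXBP5L, a syntaxin-binding protein, rose by 1.10, 1.09 and 1.07. All 4 calls held with any 1 library left out. CFAP70, a protein of cilia, rose by 1.07, HFM1, a meiotic helicase, by 1.25, DDR2, a collagen receptor kinase, by 1.10, and C1QTNF6 by 1.17. These calls did not hold in every fit with 1 library left out. The log2 changes of those fits ran from 1.06 to 1.45 for HFM1 and from 1.02 to 1.33 for C1QTNF6. The secreted protease ADAMTS1 moved the other way, with 54.4 and 55.9 CPM in starved libraries, against 118 and 122 CPM in glucose-fed libraries. Non-coding genes with the largest rises also included PRSS30P and AL590617.2 (0.98 and 0.97), whose calls did not hold with 1 library left out. AL590617.2 overlaps NHSL1 on the opposite strand.

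Called genes differed in genomic span, the distance between gene start and end in the deposited hg38 coordinates. Among 10745 protein-coding genes averaging a log2 CPM of 2 or more, the median span was 58.9 kb for 304 genes called higher, 20.9 kb for 235 called lower and 36.5 kb for all. Genes over 100 kb made up 35.2% of the higher genes, 10.6% of the lower genes and 21.3% of all. The median log2 change of HDGF-depleted cells was 0.18 for the 431 genes over 300 kb and -0.08 for the 1798 genes under 10 kb. In single libraries, set against the mean of their own glucose-fed group, genes over 300 kb had medians of 0.17 and 0.20 in starved libraries 3 and 4, against 0.03 and -0.03 in glucose-fed libraries. Genes under 10 kb had medians of -0.03 and -0.13 in the starved libraries, against -0.01 and 0.01 in the glucose-fed libraries. The shift of long genes was thus seen in both starved libraries, and that of short genes was larger in starved library 4. Control cells gave medians of 0.12 and -0.02 for the same longest and shortest classes and INTS13-depleted cells 0.09 and -0.01. Span is a property shared by many genes and its part in the response was not tested.

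**Figure D4:**
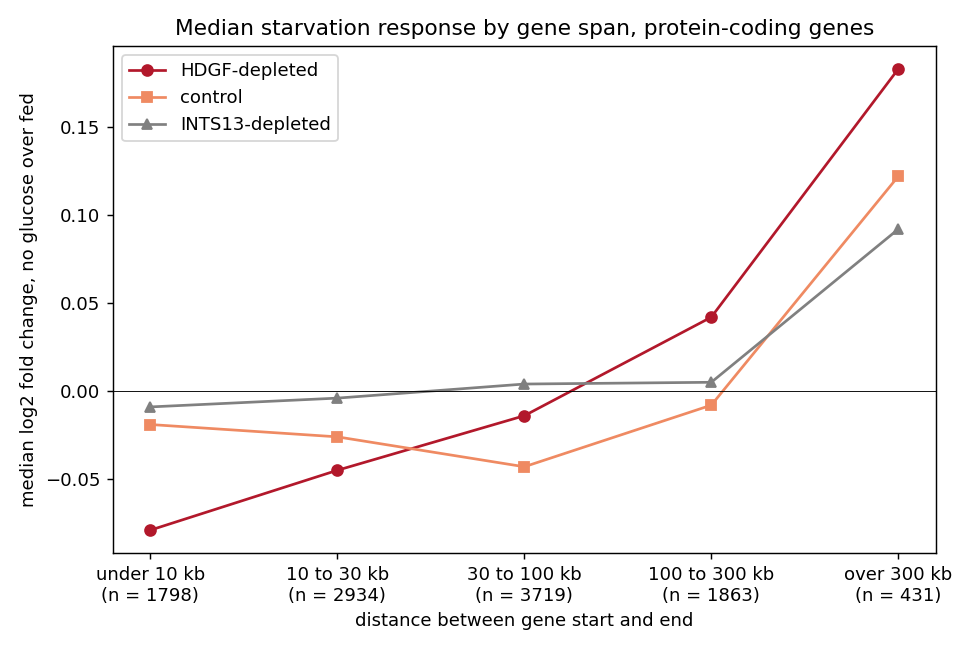
Median log2 fold change (starved over glucose-fed) of protein-coding genes in 5 classes of gene span in kb, with 1 line per siPOOL group. In HDGF-depleted cells the median is lowest, -0.08, under 10 kb and highest, 0.18, over 300 kb, and the control and INTS13 lines are also highest in the longest class.

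The response of HDGF-depleted cells ran in the direction of the control response. No library is shared between the 2 responses. Of the 403 genes that rose in HDGF-depleted cells, 309 (76.7%) were also called higher in control cells, where they made up 18.3% of 1691 higher genes. Of the 280 that fell, 235 (83.9%) were called lower in control cells, which is 15.1% of 1552. No gene was called in opposite directions. In control cells 16.8% of tested genes were called, 8.77% higher and 8.05% lower, with 4 libraries per group against 2. Those 4 carried only the numbers 3 and 4. INTS13-depleted cells, also with 2 libraries per group, had 255 calls (1.32%), of which 165 were higher (0.856%) and 90 lower (0.467%). They shared 103 higher genes (25.6% of the HDGF list and 62.4% of the INTS13 list) and 49 lower genes (17.5% and 54.4%) with HDGF-depleted cells. Across 11487 genes averaging a log2 CPM of 2 or more, the log2 changes of HDGF-depleted and control cells had a Pearson r of 0.75 and a Spearman rho of 0.70, as a description across genes, which are not independent replicates.

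The leading genes changed in the same direction in both. TXNIP changed by -2.41 ± 0.27 in HDGF-depleted cells and by -1.99 ± 0.18 in control cells (SE), where starved libraries held 5.32 ± 0.811 CPM and glucose-fed libraries 21.2 ± 2.47 CPM (SD, n = 4). The difference between the responses was -0.42 ± 0.32 (SE; adjusted p = 1.000). ARRDC4 changed by -1.16 in HDGF-depleted cells and -0.84 in control cells, HSPA5 by -0.97 and -0.76, H1-3 by -1.27 and -1.69, and PCK2 by 1.23 and 1.22. HRK changed by 1.38 and 0.92 and JDP2 by 1.75 and 1.22. HRK, JDP2, H1-3 and PCK2 were named for the size of their change in HDGF-depleted cells, which favours larger values there. Over 11487 genes averaging a log2 CPM of 2 or more, the median absolute log2 change was 0.154 in HDGF-depleted cells and 0.157 in control cells. SPATA18 rose less in HDGF-depleted cells by point estimate (0.84, against 1.43 in control cells). Its glucose-fed level was 6.33 ± 0.246 CPM in HDGF-depleted cells, against 3.53 ± 0.585 CPM in control cells. The glucose-fed HDGF-depleted libraries enter both that level and the response. SPATA18 and ARRDC4 were also listed because HDGF depletion changed them in earlier results of these libraries. The difference for SPATA18 was -0.59 ± 0.18 (SE; adjusted p = 0.80). None of these differences passed, which does not show that the responses were equal.

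Testing the difference for each gene gave 0 calls of 19275 between HDGF-depleted and control cells (0%), with 909 genes at an unadjusted p under 0.05 (4.72%). Between HDGF-depleted and INTS13-depleted cells there were also 0 calls, with 546 genes at an unadjusted p under 0.05 (2.83%). DESeq2 called 7 and 0 genes. The count against control was 41 when the 18 libraries of the set were fitted alone, 6 with the replicate number as a block and 36 with both, and 0 with any 1 of the 12 libraries left out of the main test. The corresponding counts against INTS13-depleted cells were 3, 0, 3 and 0. The 3 genes were MIR34AHG, PCLO, a presynaptic scaffold protein, and SLC1A5, a glutamine carrier, named after their values were seen.

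**Figure D5:**
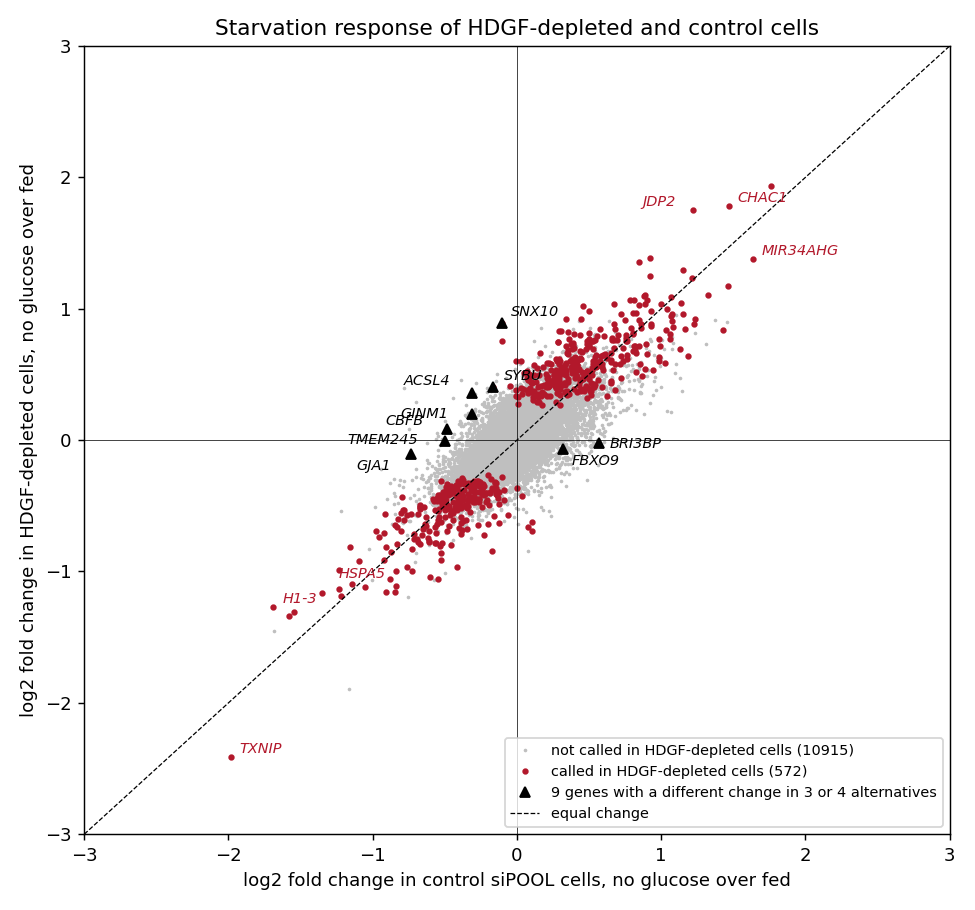
Log2 fold change of starvation in HDGF-depleted cells (vertical) against control cells (horizontal) for 11487 genes averaging a log2 CPM of 2 or more. Red points are 572 genes called in HDGF-depleted cells, black triangles the 9 genes whose difference was called in 3 or 4 of 4 alternative fits, and the dashed line marks equal change; most red points lie near the line.

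The difference from control was called in at least 3 of these 4 alternative fits, which share their data, for 9 genes, so they were chosen by their values. Of the 9, 7 had the higher log2 change in HDGF-depleted cells. SNX10, a sorting nexin of endosomes, had 9.802 and 9.17 CPM in starved HDGF-depleted libraries, against 5.09 and 5.16 CPM in glucose-fed HDGF-depleted libraries. In control cells it stood at 13.5 ± 2.39 CPM in starved libraries and 14.5 ± 1.06 CPM in glucose-fed libraries (SD, n = 4). SNX10 thus rose in HDGF-depleted cells (0.89, adjusted p = 0.00296) and changed by -0.11 in control cells, a difference of 1.00 ± 0.20 (SE). SYBU, a syntaxin-binding microtubule linker, rose by 0.40 in HDGF-depleted cells (adjusted p = 0.00963) and changed by -0.17 in control cells.

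GJA1, the gap junction protein connexin 43, had 23.1 and 22.7 CPM in starved HDGF-depleted libraries, against 23.1 and 26.1 CPM in glucose-fed HDGF-depleted libraries, so the highest starved and the lowest fed value were almost equal. In control cells it had 51.97 ± 2.32 CPM in starved libraries and 86.6 ± 5.36 CPM in glucose-fed libraries (SD, n = 4), a log2 change of -0.74. The log2 change was likewise above the negative one of control cells for CBFB, the partner of RUNX factors, with 0.08 in HDGF-depleted cells and -0.48 in control cells, TMEM245, with -0.01 and -0.50, GINM1, with 0.20 and -0.31, and ACSL4, an acyl-CoA ligase for polyunsaturated fatty acids, with 0.36 and -0.31. The 2 genes with the lower change were BRI3BP, with -0.02 and 0.57, and FBXO9, with -0.07 and 0.32. For the 7 genes whose control change passed, the mean glucose-fed HDGF-depleted level lay beyond the starved control level on the side towards which control cells moved: BRI3BP had 126 and 129 CPM in glucose-fed HDGF-depleted libraries, against 98.99 ± 4.78 CPM in starved control libraries and 66.7 ± 4.74 CPM in glucose-fed control libraries. For SNX10 and SYBU the change in control cells did not pass (adjusted p = 0.57 and 0.0622). The glucose-fed HDGF-depleted libraries enter both that level and the difference between responses.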

How the data were processed

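Total RNA of HEK293T cells was depleted of ribosomal RNA and sequenced as 35 stranded libraries, per the labels' protocols. The authors deposited raw read counts per gene for every library in 1 table of 60665 genes, taken before duplicate removal, with hg38 positions. Per the submitters' processing notes, FastQC, cutadapt, STAR and hg38 were used; versions, counting tool, annotation and strand setting are not given in the sources used here. Duplicated reads inflate precision, and unknown strand counting leaves overlapping genes uncertain: of 92 named genes 36 overlap another tested gene. All 37 mitochondrial genes had 0 counts. Of the identifiers, 96.4% were found in GENCODE release 29, which gave gene types.

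Counts were filtered with filterByExpr by group, TMM-scaled and fitted with edgeR 4.0.16 (R 4.3.3) as 15 group means over all 35 libraries with no block, so that groups of 2 libraries shared 1 estimate of spread (20 residual degrees of freedom, with 5.87 added by the prior; median BCV, the biological coefficient of variation, 12.3%). Each comparison is a contrast in a two-sided quasi-likelihood test with Benjamini-Hochberg adjustment over 19275 genes, called under 0.05. CPM values are TMM-scaled except for marker sums, which use total counts, and log2 CPM used a prior count of 2. The code was tested on simulated data. Whether replicates were separate cultures is not stated in the labels; the p-values reflect only how far these libraries differ, which may be technical, and depth limits low genes.

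Named genes were HDGF, TXNIP, ARRDC4, ATF4, DDIT3, ASNS and HSPA5; in each direction, the 15 protein-coding genes that changed most among those called, averaging a log2 CPM of 2 or more with non-overlapping groups; up to 4 called members of each of 34 gene lists; up to 8 and 4 called genes per direction of the differences from control and from INTS13; and up to 4 called non-coding genes per direction. List members beyond these are named as examples. Members, lists and rules were chosen with earlier results of these data known, and the histone and HOX lists after seeing the values. Alternatives were DESeq2 1.42.0, DESeq2-style size factors, no count filter, fewer libraries in the fit, a replicate block and leaving out each library. Promoter windows were RefSeq's (GRCh38.p14), the first listed per gene for shares. Some members of the lists are not reported here.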

Additional observations from a re-analysis of the deposited data

How the results depend on the processing

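The starvation of HDGF-depleted cells gave 678 calls with DESeq2-style size factors, 513 with no count filter and 917 with DESeq2, counts within 1.5 times of 683; of the 683 genes themselves 660, 335 and 669 were among them. It gave 3170 with the 18 libraries of the set alone, 3596 with the 4 HDGF libraries alone and 109 to 208 with 1 library left out, where the lone library of a group is assumed to vary like the other groups. Control starvation gave 6479 calls with the set alone. INTS13 starvation gave 475 with DESeq2, 2371 with the set alone and 8 to 36 with 1 library left out. The difference between HDGF-depleted and control cells gave 7 calls with DESeq2 and 41 with the set alone, and that from INTS13-depleted cells 3 with the set alone. With the replicate block in all 35 libraries the calls were 1905 (HDGF), 5212 (control), 1126 (INTS13) and 6 (difference from control). With the replicate block in the set alone they were 3069, 6400, 2267 and 36, and 3 for the difference from INTS13. Within the 18-library set replicate numbers did not clearly pair the samples. Deviations of same-numbered libraries correlated above 0.1 in 6 of 21 pairs of groups (median r 0.0254). The value was 0.0753 for starved and glucose-fed HDGF-depleted libraries. Pairing was not examined in the other libraries. In each depletion group numbered 1 and 2, library 1 had the higher ribosomal protein share. For ZEB1 depletion it was 16.6%, against 9.16% in library 2. The cause of these differences in count was not tested.

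Of the 89 called named genes, 89 were called with the set alone and with the block in all libraries, 88 with DESeq2, and 19 in every fit that left out 1 library. The sign of a named gene changed once, for HDGF itself without glucose-fed library 3 (-0.0115, the lowest of its values with 1 library left out, the highest being 0.2032). Medians of 34 lists changed sign in 19 of 374 alternatives, all for lists with a median between -0.08 and 0.04. With 2 libraries per group and 16766673 counts in the shallowest, small changes of low genes could not be detected. No label says whether glucose-fed cells had a medium change at the time of starvation.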

Other observations

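A few abundant called genes lay outside the gene lists and were picked after their values were seen. EEF2, the elongation factor that moves the ribosome along mRNA, had a mean of 4597 CPM in starved HDGF-depleted libraries, against 3338 CPM in glucose-fed HDGF-depleted libraries (log2 fold change 0.46, adjusted p = 0.049, edgeR). EIF4G2, an initiation factor scaffold, had 791 CPM in starved libraries, against 1056 CPM in glucose-fed libraries (-0.42, adjusted p = 0.0493). TCP1, a subunit of the chaperonin that folds actin and tubulin, had 540.1 CPM in starved libraries, against 711 CPM in glucose-fed libraries (-0.40, adjusted p = 0.0188). Of 78 cytosolic ribosomal protein genes edgeR called 0, with a median of 0.18, and of 25 ribosome biogenesis genes 0, with a median of -0.28. With the 18 libraries of the set alone, 31 ribosomal protein genes were higher and 14 biogenesis genes lower. Totals of that fit were 1625 higher and 1545 lower of 18665 genes.

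Mitochondrial energy genes encoded in the nucleus stayed near 0 in the median. Of 48 respiratory chain and ATP synthase genes, 26 genes of pyruvate oxidation and the citric acid cycle, and 17 genes of fatty acid oxidation, edgeR called none, with medians of 0.00, -0.07 and 0.00. With the set alone 4, 3 and 2 of them were called higher and 3, 3 and 0 lower. In that fit 1625 of 18665 tested genes were called higher and 1545 lower, so these counts say little about the lists. Of 32 lysosome and autophagy genes, the sialidase NEU1 and the autophagy kinase ULK2 rose (0.53 and 0.48) and GABARAPL1, an autophagosome protein, fell by 0.56. Of 19 genes of AMPK and of brakes on mTORC1, FNIP1, a partner of folliculin, rose by 0.42. Of 17 interferon response genes, IFIT1 fell by 0.69 at 1.55 to 2.85 CPM and overlaps LIPA on the opposite strand. Of 18 Integrator subunits, INTS2 rose by 0.29 (adjusted p = 0.0352), and the list median was 0.03. Over all tested genes 3.54% were called, so 1 call in a list of this size says little about the list. The 3 relatives of HDGF in the family list, HDGFL2, HDGFL3 and PSIP1, changed by -0.29, -0.11 and 0.16 and did not pass. Of 12 genes listed because HDGF depletion changed them in earlier results of these libraries, SPATA18 rose and ARRDC4 fell with starvation. The glucose-fed HDGF-depleted libraries served both to choose that list and as the baseline here, so its values support nothing about starvation.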
